A study of Mus musculus with 6 samples.

Results

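The 5 mouse genes of the Rel family, which encode the NF-kappaB transcription factors, and 5 genes of the IkB family, which encode their inhibitors and co-regulators, were followed in CD4+ T cells labelled Wtap KO and in WT cells. These 10 genes were taken by symbol out of 55177 genes in the tables, and they held 57 of 141429 annotated transcripts. RNA was sequenced from 3 Wtap KO libraries and 3 WT libraries of C57BL/6J mice. Wtap encodes a regulatory subunit of the nuclear enzyme complex that places N6-methyladenosine (m6A) on mRNA. Per the labels' protocols, cells of both groups were exposed to 4-hydroxytamoxifen at 1 µM for 24 h, a step described as removing Wtap, and were then activated with anti-CD3 and anti-CD28 antibodies. Th1 conditions (IL-12 with blocked IL-4) lasted 40 to 48 h, IL-2 followed, and cells were taken on day 4. The Cre driver, the presence of Cre in WT cells, the deleted part of Wtap, the age of the mice and the tie of libraries to single animals are not stated in the labels. The p-values therefore measure the spread between these libraries, which may be partly technical.

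The libraries held 32363139 to 44039467 estimated counts, and all 10 genes passed the filter on low counts, with 73 to 9903 counts per gene and library. Total Wtap RNA was at 114, 120 and 119 CPM (counts scaled to a common library size) in Wtap KO and at 114, 106 and 94.3 CPM in WT (log2 fold change 0.16 ± 0.10 SE, edgeR adjusted p = 0.371), which checks no deletion, since the deleted part is not stated. Wtap KO 3 differed in sex pattern from the other 5 libraries: Kdm5d, a gene of the Y chromosome, reached 63.3 CPM there and 2.44 to 3.54 CPM elsewhere. T cell markers were abundant in every library, summing to 2703 to 2887 TPM (counts scaled for transcript length and library size) in Wtap KO and 3268 to 3564 TPM in WT, with Cd4 and Cd3g lower in Wtap KO (log2 fold changes -0.52 ± 0.11 and -0.62 ± 0.11). Of 10 dendritic cell markers, 8 were tested and 3 were higher (H2-Aa, Cd74 and Batf3). Of the 8, only H2-Ab1 had a negative log2 fold change (-0.92 ± 0.55, not passed), with 20.8 CPM in WT 1. The list summed to 45.1 to 60.4 TPM in Wtap KO and 11.8 to 37.7 TPM in WT. Clec9a, which was not tested, was at 0.105 to 0.221 CPM in Wtap KO and 0.0276 to 0.0818 CPM in WT. Macrophage and monocyte markers summed to 2.41 to 5.49 TPM in Wtap KO and 0.992 to 3.20 TPM in WT, and 2 of 7 were tested, of which Itgam was higher. B cell markers summed to 3.39 to 4.86 TPM in Wtap KO and 2.03 to 3.64 TPM in WT, with Pax5 at or below 0.236 CPM in each library. Of the 6 listed, 4 were tested, and Blk was higher. Cd79a, Cd79b and Ms4a1 had log2 fold changes of 0.02, 0.60 and 0.42 and did not pass. The CD8 T cell pair summed to 11.4 to 13.9 TPM in Wtap KO and 7.18 to 7.79 TPM in WT, with Cd8b1 called higher. NK cell markers summed to 60.9 to 74.8 TPM in Wtap KO and 60.8 to 133 TPM in WT, granulocyte markers to 1.36 to 2.42 TPM in Wtap KO and 0.44 to 1.15 TPM in WT with S100a9 at 0, and erythroid and platelet markers to 5.63 to 15 TPM in Wtap KO and 3.27 to 12 TPM in WT, with no call in these lists. The part of these cells, of the sex pattern and of depth in the results given here was not tested.

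NF-kappaB factors act as pairs of Rel family proteins that bind kappaB sites in DNA. In resting cells IkB proteins hold them in the cytoplasm, and signals from the T cell receptor, CD28 or TNF receptors lead to destruction of the inhibitor. The genes for IkB alpha (Nfkbia), Nfkb2, Relb and others are themselves known kappaB targets, so the pathway restores its own inhibitors and stocks its later-acting subunits. A second set of IkB proteins, made from Bcl3, Nfkbiz and Nfkbid, is nuclear and tunes transcription instead of retaining the factors.

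The stretches that hold the kappaB consensus near the start sites are shown because several of the genes are known targets of their own pathway. They come from RefSeq promoter windows of the GRCm38.p6 build, which run from 250 bases before to 50 bases after a start site. The table held windows for 7 of the 10 genes (not for Nfkb1, Relb or Nfkbiz), 11 windows in all. The standard kappaB consensus was searched on both strands, and capitals mark a match, or the joined letters of overlapping matches. Positions count from the start site, whose base is 1 and whose preceding base is -1. Further matches in windows of Nfkb2 and Nfkbid are not shown. The position for Nfkbid counts from a later start, in the window 30422156-30422455, while the gene begins at 30421732. Its earlier window, 30421481-30421780, held no match.
Nfkb2, chr19:46304689-46304718, plus strand, from -39: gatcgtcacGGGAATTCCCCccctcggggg
Nfkb2, chr19:46304716-46304745, plus strand, from -11: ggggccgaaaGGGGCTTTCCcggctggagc
Nfkb2, chr19:46305695-46305724, plus strand, from 11 of a later start: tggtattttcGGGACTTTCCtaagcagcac
Rel, chr11:23771041-23771070, minus strand, from -92: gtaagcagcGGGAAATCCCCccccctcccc
Nfkbia, chr12:55492657-55492686, minus strand, from -29: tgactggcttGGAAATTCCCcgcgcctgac
Nfkbie, chr17:45555584-45555613, plus strand, from -106: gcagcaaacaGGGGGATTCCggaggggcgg
Nfkbid, chr7:30422170-30422199, plus strand, from -226: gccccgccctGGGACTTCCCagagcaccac
Bcl3, chr7:19822734-19822763, minus strand, from 3: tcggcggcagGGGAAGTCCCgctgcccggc
A match was found for 6 of these 7 genes and in 8 of their 11 windows, against 4.51% of 32851 windows and 5.14% of 27025 genes in the table. The Rela window held none. Matches thus stood near a start of genes that passed the test given next (Nfkb2, Nfkbia, Nfkbie and Bcl3). In Bcl3 the match lies just after the start. Matches also stood near a start of genes that did not pass (Rel, and Nfkbid at a later start). A match is a run of letters and not a measured binding site.

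Of the 10 genes, 6 were higher in Wtap KO than in WT, 0 were lower and 4 did not pass the test. The 6 were Relb, Nfkb2, Nfkbie, Bcl3, Nfkbia and Nfkbiz, with folds between 1.70 and 2.98. Among all 17610 genes tested, 5.75% were higher and 3.49% lower (9.23% in either direction), in edgeR's quasi-likelihood test at an adjusted p of 0.05. At an unadjusted p of 0.05, 7 of the 10 genes were higher and 0 lower, against 14% and 12.2% of all genes tested, and the DESeq2 Wald test called 7 higher and 0 lower, against 7.43% of all genes higher in that test. The median log2 fold change of the 10 genes was 0.86, against -0.00 over all genes tested. In 7 of the 10 each Wtap KO library lay above each WT library, which held for 17.2% of all genes tested. RNA from whole cultures cannot tell more RNA per cell apart from more cells that hold it.

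**Figure D1:**
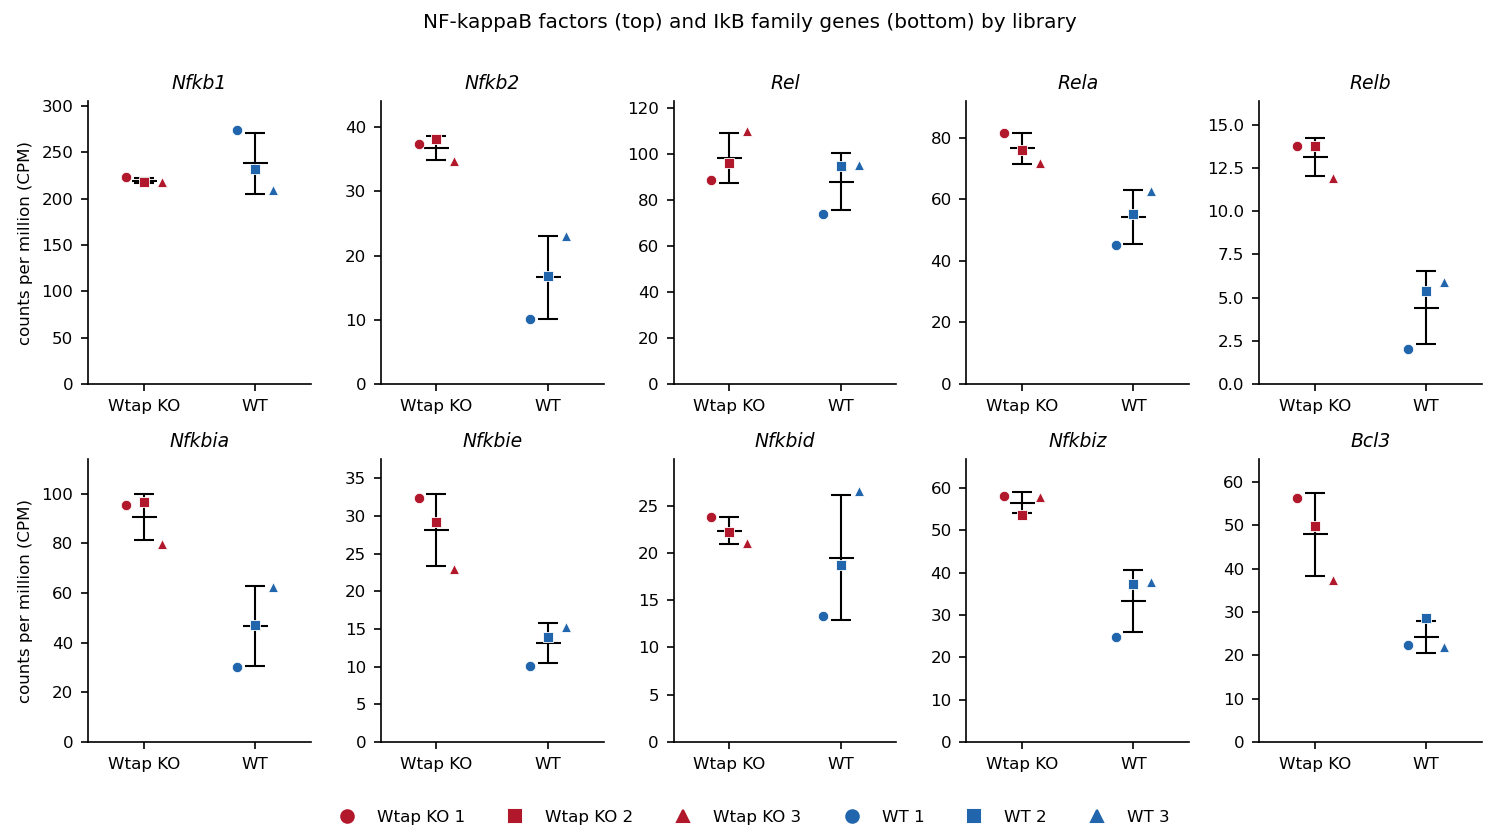
Level of each gene in CPM (vertical axis) in the 3 Wtap KO and 3 WT libraries, with Rel family genes above and IkB family genes below; points are libraries, and bars are the mean and SD. Nfkb2, Rela, Relb, Nfkbia, Nfkbie, Nfkbiz and Bcl3 do not overlap between the groups, and WT 1 is the lowest WT library in all of these except Bcl3.

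The number of calls depended on the libraries used. Without Wtap KO 1 or without Wtap KO 2, 0 of the 10 genes passed in edgeR (7 higher and 0 lower at an unadjusted p of 0.05), without Wtap KO 3 or without WT 2 only Nfkbie and Bcl3 passed, and without WT 1 or without WT 3 there were 7 calls, Rela among them. The directions of the 6 called genes held in each of these fits, with log2 fold changes from 0.59 (Nfkbiz) to 1.84 (Relb). Nfkbie and Bcl3 reached an edgeR adjusted p of up to 0.0603 and 0.0656 in these fits, and Nfkb2, Relb, Nfkbia and Nfkbiz up to 0.109, 0.102, 0.134 and 0.101.

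Among the Rel family genes, the calls were Relb and Nfkb2, which encode subunits of the non-canonical branch of the pathway. Relb encodes a subunit that pairs chiefly with the p52 protein made from Nfkb2. Relb (ENSMUSG00000002983, GRCm38 chr7:19606217-19629438, minus strand) was at 13.8, 13.8 and 11.9 CPM in Wtap KO and at 2.02, 5.38 and 5.89 CPM in WT. The lowest Wtap KO library lay above the highest WT library, and WT 1 was far below the other WT libraries. The log2 fold change was 1.58 ± 0.34 (edgeR adjusted p = 0.0251), which is 2.98-fold and the largest fold among the 10 genes. Nfkb2 (ENSMUSG00000025225, GRCm38 chr19:46304320-46312385, plus strand) encodes p100, the precursor of p52, which in its uncut form acts as an inhibitor. It was at 37.4, 38.2 and 34.7 CPM in Wtap KO and at 10.1, 16.9 and 23.0 CPM in WT. The Wtap KO libraries stood close together, while the WT libraries were spread widely, and the groups did not overlap. Its log2 fold change was 1.14 ± 0.25 (edgeR adjusted p = 0.0280), and 0.85 (adjusted p = 0.0851) with an offset on effective length. Exons of Nfkb2 share 531 bases with AC114539.1 and 299 bases with Psd on the opposite strand, and the strand setting of the counting is not given in the sources used here, so reads of these bases are uncertain.

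The subunits of the canonical branch did not pass. Rela encodes p65, the main activating subunit. It was at 81.6, 76.1 and 71.7 CPM in Wtap KO and at 45.1, 55.1 and 62.5 CPM in WT. The groups did not overlap, but the log2 fold change of 0.50 ± 0.13 missed the threshold (edgeR adjusted p = 0.0525), and it passed with the DESeq2 Wald test (0.48, adjusted p = 0.0217). Rel encodes c-Rel, a subunit abundant in lymphocytes that drives the Il2 gene in activated T cells. Rel was at 88.6, 96.0 and 110 CPM in Wtap KO and at 73.8, 95.0 and 95.3 CPM in WT, with overlapping groups and a log2 fold change of 0.16 ± 0.13 (edgeR adjusted p = 0.506). Nfkb1, the gene for p105 and its product p50, had the only negative value among the 10. Nfkb1 was at 223, 218 and 218 CPM in Wtap KO and at 274, 232 and 209 CPM in WT, so that the WT libraries lay on both sides of the Wtap KO libraries (log2 fold change -0.12 ± 0.12, edgeR adjusted p = 0.572).

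Nfkbie and Nfkbia, which encode classical IkB proteins, were higher. Nfkbie (ENSMUSG00000023947, GRCm38 chr17:45555703-45563169, plus strand) encodes IkB epsilon, a cytoplasmic inhibitor. It was at 32.4, 29.2 and 23.0 CPM in Wtap KO and at 10.1, 14.0 and 15.2 CPM in WT. No library of one group reached into the range of the other, and Wtap KO 3 was the lowest of its group. The log2 fold change was 1.1 ± 0.19 (edgeR adjusted p = 0.0118), or 2.15-fold. Nfkbia (ENSMUSG00000021025, GRCm38 chr12:55489410-55492647, minus strand) encodes IkB alpha, an inhibitor that is destroyed and remade rapidly after a signal. It was at 95.6, 96.6 and 79.9 CPM in Wtap KO and at 30.2, 47.1 and 62.4 CPM in WT. The WT libraries covered a wide range, WT 1 lowest and WT 3 highest, and all lay below the Wtap KO libraries. Its log2 fold change was 0.96 ± 0.23 (edgeR adjusted p = 0.0364), and the same fold had an adjusted p of 0.0784 when low genes were not filtered out.

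Of the 3 genes for nuclear IkB proteins, Bcl3 and Nfkbiz were higher and Nfkbid did not pass. Bcl3 (ENSMUSG00000053175, GRCm38 chr7:19808462-19822770, minus strand) encodes a co-regulator that binds p50 and p52 pairs on DNA. It was at 56.4, 49.8 and 37.5 CPM in Wtap KO and at 22.4, 28.6 and 21.9 CPM in WT. Its highest WT library was WT 2, unlike the other called genes, whose highest WT library was WT 3. The log2 fold change was 0.98 ± 0.17 (edgeR adjusted p = 0.0132), or 1.97-fold, and 161 exonic bases overlap Gm16175 on the opposite strand. Nfkbiz (ENSMUSG00000035356, GRCm38 chr16:55811375-55838899, minus strand) encodes IkB zeta, a nuclear co-activator. Nfkbiz was at 58.0, 53.6 and 57.9 CPM in Wtap KO and at 24.9, 37.3 and 37.8 CPM in WT (log2 fold change 0.76 ± 0.16, edgeR adjusted p = 0.0248). The Wtap KO libraries were nearly equal and lay above all WT libraries. Nfkbid encodes IkB NS, a nuclear protein needed for induction of c-Rel-dependent genes in T cells. It was at 23.8, 22.2 and 21.0 CPM in Wtap KO and at 13.3, 18.7 and 26.5 CPM in WT, where the WT range enclosed all Wtap KO values (log2 fold change 0.20 ± 0.22, edgeR adjusted p = 0.637).

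**Figure D2:**
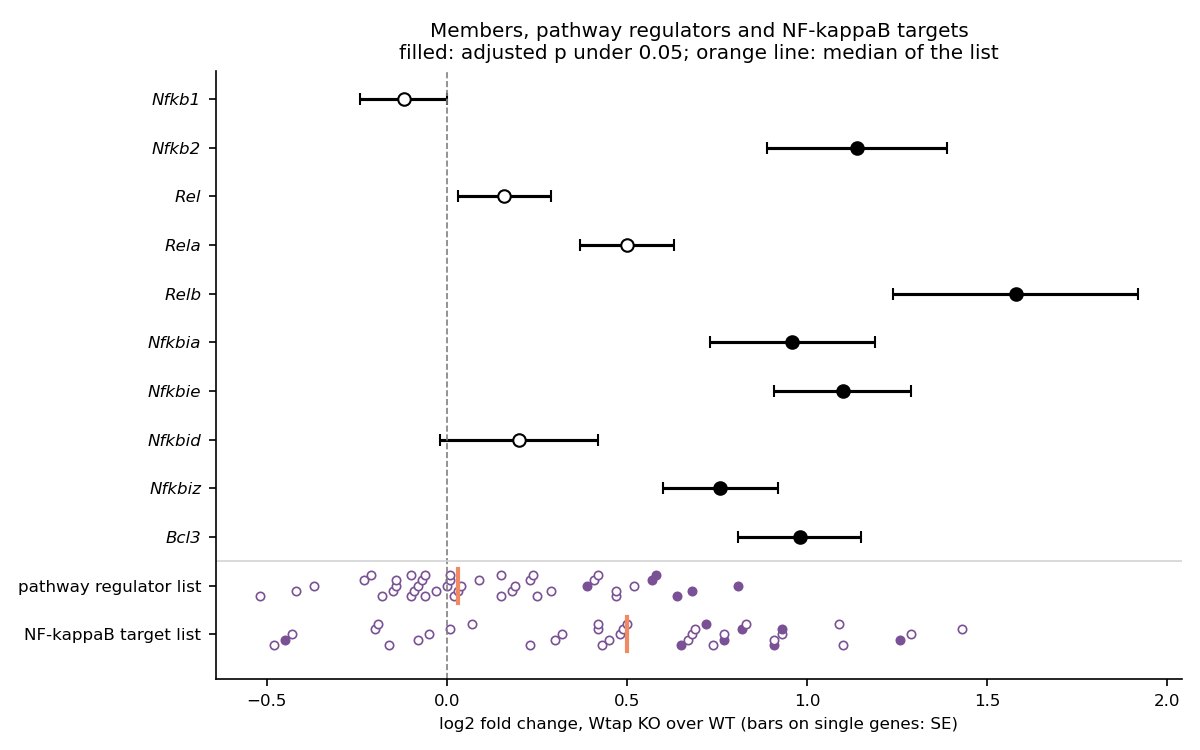
Log2 fold change of Wtap KO over WT (horizontal axis) for the 10 genes with SE bars, and below them for the genes of the pathway regulator and NF-kappaB target lists, each point a gene and the orange line the list's median. Filled points passed an adjusted p of 0.05; the 6 filled genes lie between 0.76 and 1.58, and the list medians are 0.03 and 0.50.

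On the TPM scale, which divides by transcript length and allows levels of different genes to be compared, the mean level was highest in Wtap KO for Nfkbia at 102 ± 8.28 TPM (SD, n = 3), above Nfkb1 at 84.8 ± 2.54 TPM. In WT, Nfkb1 was highest at 89.7 ± 14.9 TPM, above Nfkbia at 49.8 ± 15.1 TPM. In each group the ranges of this leading pair did not overlap, and their order differed between the groups. This change of order holds for all transcripts of a gene summed, and was not seen in the coding ones alone. The coding Nfkbia-201 averaged 37.8 TPM in Wtap KO and 18.9 TPM in WT. The coding Nfkb1-201 and Nfkb1-203 averaged 24.7 and 16.9 TPM in Wtap KO, and 26.0 and 17.0 TPM in WT. Bcl3 (68.9 ± 12 TPM) and Rela (61.3 ± 4.04 TPM) followed in Wtap KO with overlapping ranges, and Rela (43.1 ± 4.13 TPM) and Bcl3 (33.8 ± 7.50 TPM) in WT, again overlapping. Next in Wtap KO came Nfkbiz at 18.6 ± 1.48 TPM, clear of its neighbours. Rel (13.4 TPM), Nfkb2 (12.6 TPM), Nfkbie (12 TPM) and Nfkbid (11.9 TPM) overlapped from each one to the next in Wtap KO, and Relb was lowest at 6.17 ± 0.456 TPM. The WT order after Bcl3 was Rel (11.6 TPM), Nfkbid (9.94 TPM), Nfkbiz (9.31 TPM), Nfkb2 (6.71 TPM) and Nfkbie (5.38 TPM), each overlapping the next, with Relb lowest at 2.06 ± 0.949 TPM. Levels of Bcl3, Nfkbia and Rela in TPM lean on short annotated transcripts. Among them are Bcl3-204 of 460 bases, Nfkbia-202 of 701 bases, Rela-203 of 786 bases and Rela-207 of 728 bases. In Wtap KO, Rela-203 and Rela-207 averaged 24.5 and 12 TPM, and the coding Rela-201 14.1 TPM. Nfkb1-207, annotated for nonsense-mediated decay, held 34.6 of the mean 84.8 TPM of Nfkb1 in Wtap KO.

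The summed level of Nfkbia and Nfkbie over that of the 5 Rel family genes was higher in each Wtap KO library than in each WT library. Both were called higher, so this ratio is not separate from their calls. Nfkbib, which encodes a further classical inhibitor, is not in the sum (log2 fold change 0.03 ± 0.20). The intron-retaining Nfkbia-202 held 63.7 of the mean 102 TPM of Nfkbia in Wtap KO and 30.9 of 49.8 TPM in WT. The 5 Rel family genes together were at 185, 174 and 175 TPM in Wtap KO and at 158, 155 and 146 TPM in WT. Nfkbia and Nfkbie together were at 121, 117 and 102 TPM in Wtap KO and at 38.0, 57.6 and 69.8 TPM in WT. Neither sum overlapped between the groups, and the ratio of the second to the first was 0.654, 0.674 and 0.582 in Wtap KO and 0.240, 0.371 and 0.478 in WT. The nuclear IkB genes over the Rel family gave 0.618, 0.540 and 0.512 in Wtap KO and 0.295, 0.399 and 0.346 in WT. Relb and Nfkb2 over Nfkb1, Rel and Rela gave 0.119, 0.122 and 0.113 in Wtap KO and 0.0343, 0.0611 and 0.0905 in WT. All 3 ratios were higher in each Wtap KO library than in each WT library, and they are given without a test. The nuclear IkB sum holds the called Bcl3 and Nfkbiz, and Relb and Nfkb2 were both called. These ratios are therefore not separate from the calls either. In the first and last ratio WT 1 was the lowest and WT 3 the highest WT library.

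**Figure D3:**
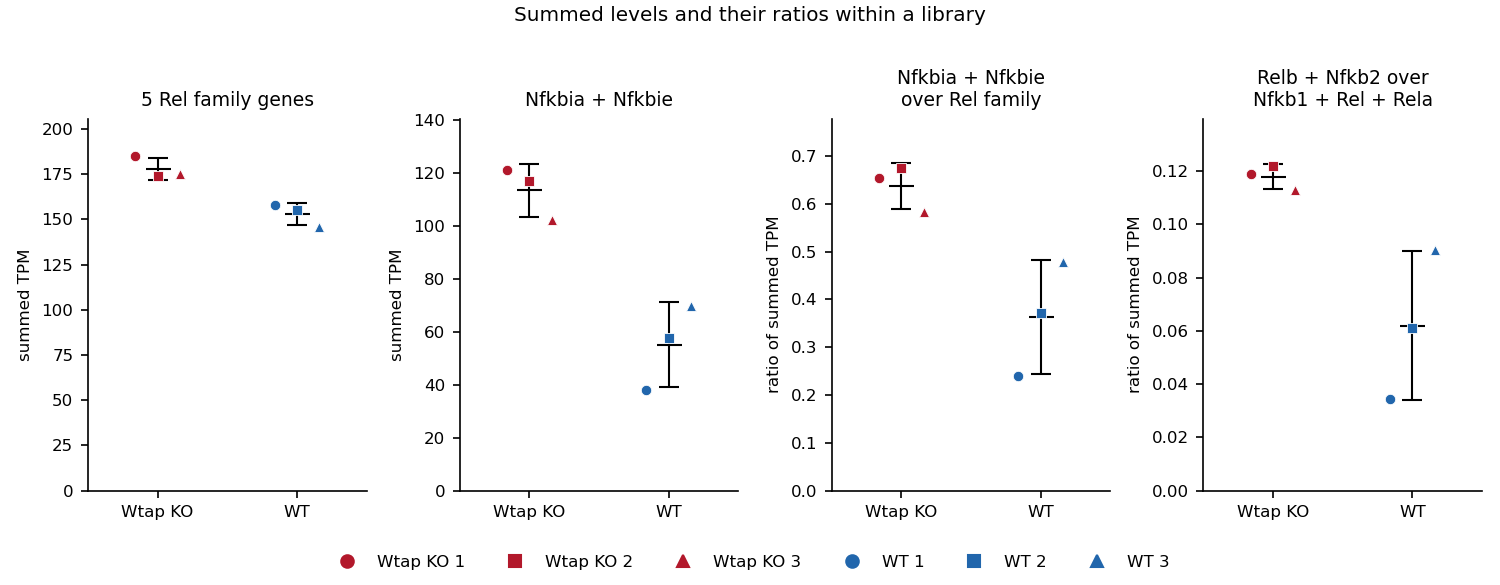
Summed level of the Rel family genes and of Nfkbia with Nfkbie in TPM, and 2 ratios of sums, in each library; points are libraries, and bars are the mean and SD. The Nfkbia and Nfkbie sum lies between 102 and 121 TPM in Wtap KO and between 38.0 and 69.8 TPM in WT.

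At the level of transcripts, 35 of the 57 passed the filter, and 1 was called, Nfkbiz-205, which was higher in Wtap KO. Among all transcripts tested, 0.501% were higher and 0.219% lower. At an unadjusted p of 0.05, 15 of the 35 were higher and 0 lower in edgeR, against 7.85% and 6.49% of all transcripts tested. A positive log2 fold change was found for 27 of the 35, and the share of positive values over all transcripts is not given here. Many of the 35 share a gene with others, so they are not separate observations. The DESeq2 Wald test called 12 higher and 1 lower of 36 with an adjusted p, against 3.1% higher and 2.59% lower of all transcripts with one. The lower one was Nfkb2-203, annotated as a non-coding processed transcript, below the filter in edgeR and listed at 0 TPM in each Wtap KO library and at 0.968, 0.672 and 2.41 TPM in WT. Of the 12 higher ones, Relb-205 was likewise below the filter in edgeR, with 64, 0 and 36 counts in Wtap KO and 0 in each WT library.

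In Nfkbia and Bcl3, the coding transcripts and the non-coding Nfkbia-202 and Bcl3-204 alike stood above WT in each Wtap KO library. Nfkbia-201, the coding transcript of IkB alpha, was at 41.0, 38.2 and 34.1 TPM in Wtap KO and at 12.3, 19.1 and 25.2 TPM in WT. Nfkbia-202, which retains an intron, was at 66.1, 67.2 and 57.9 TPM in Wtap KO and at 21.5, 32.6 and 38.6 TPM in WT. Its share of the gene's counts was 39.9% ± 0.951 in Wtap KO and 39.4% ± 1.27 in WT (SD, n = 3), so the groups' shares overlapped although each transcript's levels did not. Bcl3-201, a coding transcript, was at 16.6, 14.6 and 10.4 TPM in Wtap KO and at 6.19, 7.37 and 6.35 TPM in WT. The short Bcl3-204 made up 23.0% ± 2.90 of the gene in Wtap KO and 20.9% ± 2.98 in WT. Bcl3-203, coding as well, was at 20.8 ± 3.45 TPM in Wtap KO and 11.3 ± 2.40 TPM in WT. The main coding transcript of IkB epsilon, Nfkbie-201, had the next smallest adjusted p of the 35 after Nfkbiz-205. It was at 12.3, 10.1 and 8.92 TPM in Wtap KO and at 4.14, 4.03 and 5.21 TPM in WT (log2 fold change 1.18 ± 0.19, edgeR adjusted p = 0.0563), with no overlap.

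In Nfkb2 both coding transcripts with at least 1 TPM were above WT in each Wtap KO library. Nfkb2-201 was at 8.44, 8.69 and 7.68 TPM in Wtap KO and at 2.60, 3.64 and 5.08 TPM in WT. Nfkb2-202 was at 3.46, 3.30 and 3.53 TPM in Wtap KO and at 0.569, 1.60 and 1.1 TPM in WT. Relb was split over transcripts at or below 2.69 TPM, whose shares moved widely between libraries of a group. Relb-203, its coding transcript with the most counts, was at 1.21, 2.59 and 2.69 TPM in Wtap KO and at 0.333, 0.740 and 1.88 TPM in WT, overlapping. Relb-206, which retains an intron, was at 0.841, 1.66 and 0.894 TPM in Wtap KO and 0.354, 0.551 and 0.311 TPM in WT. Relb-210, annotated as a target of nonsense-mediated decay, was at 1.37, 1.54 and 1.30 TPM in Wtap KO and at 0, 0.785 and 0.0865 TPM in WT. Estimates of this kind carry an error of read assignment that the tables do not give.

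Rela transcripts other than Rela-206 and Rela-202 lay above WT in each Wtap KO library among those with at least 1 TPM. The coding Rela-201 was at 15.9, 13.7 and 12.7 TPM in Wtap KO and 8.71, 9.36 and 9.86 TPM in WT, and the intron-retaining Rela-203 was at 24.5 ± 0.965 TPM in Wtap KO and 17.0 ± 1.61 TPM in WT. The non-coding Rela-207 was at 12 ± 1.30 TPM in Wtap KO and 9.40 ± 1.49 TPM in WT. Rela-206, annotated for nonsense-mediated decay, overlapped at 8.56 ± 1.5 TPM in Wtap KO and 5.84 ± 2.54 TPM in WT, and the 311-base Rela-202 was listed at 0 in 1 library of each group. Rel has 1 annotated transcript, Rel-201, so its transcript values are those of the gene. In Nfkb1 the share held by retained-intron transcripts was 9.74% ± 1.40 in Wtap KO and 6.64% ± 1.32 in WT. The groups did not overlap in that share. The share annotated for nonsense-mediated decay was 28.2% ± 2.06 in Wtap KO and 32% ± 1.7 in WT, also without overlap and lower in Wtap KO. The retained-intron share rested chiefly on Nfkb1-202, at 6.14, 3.92 and 5.96 TPM in Wtap KO and 2.41, 1.33 and 3.25 TPM in WT, which did not pass (log2 fold change 1.14 ± 0.36, edgeR adjusted p = 0.223). Tested against the gene total, the shares of Nfkb1-202 and Nfkb1-207 did not pass either (edgeR adjusted p = 0.432 and 0.494). How often such shares fail to overlap over all genes is not given here. The coding Nfkb1-201 and Nfkb1-203, the intron-retaining Nfkb1-204 and Nfkb1-207, annotated for nonsense-mediated decay, overlapped between the groups, with means of 24.7, 16.9, 1.94 and 34.6 TPM in Wtap KO and 26.0, 17.0, 1.97 and 41.1 TPM in WT. Nfkbid-201, Nfkbid-202 and Nfkbid-203, all coding and nearly equal in length, varied in share from library to library. Nfkbid-201 alone ran from 49.4% to 89.0% of the gene within WT, and all 3 overlapped between the groups.

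Nfkbiz-205 stood apart from the other transcripts of the 10 genes. It is annotated as a processed transcript of 1391 bases, without a coding sequence. It shares its leading 2 exons with the distal-start transcripts Nfkbiz-201 and Nfkbiz-203. Its last exon lies in their following intron, at GRCm38 chr16:55824666-55825545 on the minus strand, and ends 2527 bases before the start of the main coding transcript Nfkbiz-204. The beginning and the end of this exon of 880 bases are shown because it carries the counts that tell Nfkbiz-205 apart. Capitals mark AATAAA, the usual polyadenylation signal, which is followed by 20 bases up to the annotated end. AATAAA occurs 2 times in the exon.
Nfkbiz-205 last exon, beginning, chr16:55825486-55825545: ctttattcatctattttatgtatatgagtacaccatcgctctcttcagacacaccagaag
Nfkbiz-205 last exon, end, chr16:55824666-55824785: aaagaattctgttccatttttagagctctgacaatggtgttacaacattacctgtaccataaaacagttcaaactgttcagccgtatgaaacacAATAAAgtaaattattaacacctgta
Of the 1361 31-base words of the transcript, the length kallisto uses by default, 849 occurred in no other GENCODE M21 transcript, as did 820 of the 850 words that lie within the last exon. Only 30 words were shared with transcripts of other genes.

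Nfkbiz-205 had 182, 183 and 244 estimated counts in Wtap KO and 9, 8 and 11 in WT. In TPM it was at 3.85, 3.45 and 4.40 in Wtap KO and at 0.196, 0.186 and 0.216 in WT. Each Wtap KO library was many times above each WT library, and the libraries of a group were close to each other. The log2 fold change was 4.19 ± 0.24, or 18.2-fold (edgeR adjusted p = 0.0210). The transcript made up 8.23%, 8.40% and 9.33% of the gene's counts in Wtap KO and 1.00%, 0.639% and 0.767% in WT. Tested against the gene total, its share had a log2 fold change of 3.40 ± 0.20 (edgeR adjusted p = 0.0281), while 0.11% of all transcripts tested that way were higher and 0.21% were called in either direction. It was the only one of 34 transcripts of these genes called in that test, in which 2 were higher and 2 lower at an unadjusted p of 0.05, against 5.08% and 4.45% of all transcripts tested that way. The transcript call was lost without WT 2, Wtap KO 1, Wtap KO 2 or Wtap KO 3 (adjusted p up to 0.162), and the share call whichever single library was left out (0.0646 to 0.206).

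The gene's main transcript did not pass. Nfkbiz-204, which encodes IkB zeta, was at 13.7, 12.1 and 13.8 TPM in Wtap KO and at 6.88, 10.0 and 9.40 TPM in WT. Its groups did not overlap, and its transcript test gave an adjusted p above the threshold (log2 fold change 0.54 ± 0.16, edgeR adjusted p = 0.194). Nfkbiz-204 held 81.5% ± 0.313 of the gene's counts in Wtap KO and 95.7% ± 3.40 in WT. Nfkbiz-203, a coding transcript from the distal start, had 233, 212 and 240 counts in Wtap KO and 0, 41 and 97 in WT. All distal-start transcripts together had 415, 395 and 484 counts in Wtap KO and 9, 48 and 108 in WT, which is 18.7%, 18.1% and 18.5% of the gene in Wtap KO and 1.00%, 4.04% and 7.79% in WT. With Nfkbiz-205 left out, the gene was at 53.3, 49.1 and 52.5 CPM in Wtap KO and at 24.6, 37.1 and 37.5 CPM in WT. That remainder still passed (log2 fold change 0.64 ± 0.16, edgeR adjusted p = 0.0438), an alternative chosen after seeing the data.

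**Figure D4:**
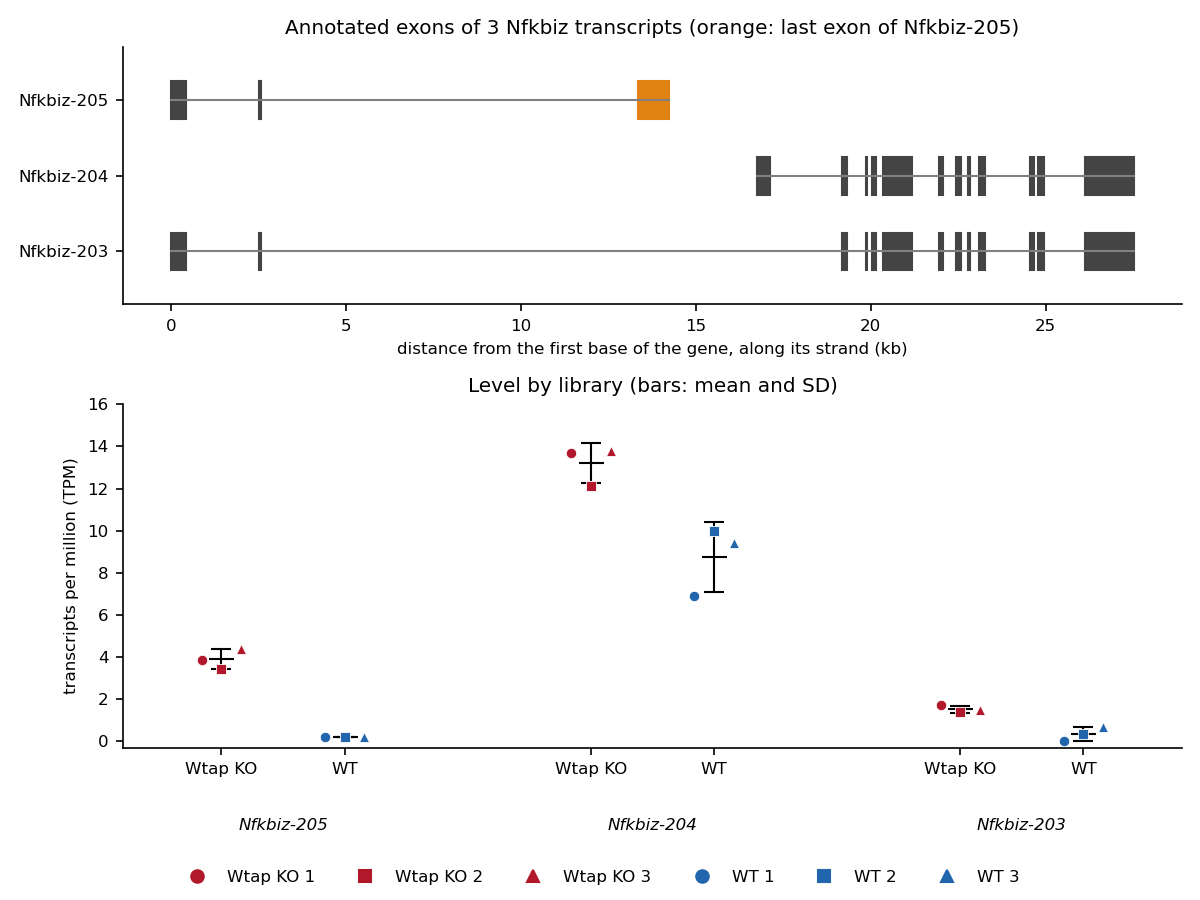
Annotated exons of Nfkbiz-205, Nfkbiz-204 and Nfkbiz-203 by distance from the first base of the gene in kilobases (above), and their levels in TPM by library (below), with points for libraries and bars for mean and SD. The last exon of Nfkbiz-205 (orange) lies before the start of Nfkbiz-204; Nfkbiz-205 reaches 3.45 to 4.40 TPM in Wtap KO and 0.186 to 0.216 TPM in WT.

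GGACT, written as DNA, is a common form of the sequence in which the complex of Wtap methylates adenosine. It was counted on the sense strand of the protein-coding transcript with the most counts per gene. Over the 12885 tested genes that had such a transcript, 90.4% held at least 1 and the median density was 1.03 per kb. Rela-201 had 2.21, Nfkb2-201 2.01, Nfkbid-201 1.96, Nfkbia-201 1.90, Relb-203 1.36 and Bcl3-201 1.08 per kb, so 6 of the 10 genes lay at or above the median. Nfkbie-201 had 0.82, Nfkb1-201 0.73 and Rel-201 0.40 per kb, and Nfkbiz-204 had none in 3627 bases. Genes that passed the test thus had densities on both sides of the median. These are counts of letters, and methylation was not measured in these files.

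Of 43 regulators of the pathway (kinases, adaptors, ubiquitin enzymes and further inhibitors), 6 were higher, 0 were lower and 37 did not pass, with a median log2 fold change of 0.03. Among all genes tested, 5.75% were higher and 3.49% lower, and the median was -0.00. At an unadjusted p of 0.05, 12 of the 43 were higher and 3 lower (Commd1, Malt1 and Nkiras2). The shares of all genes tested at that unadjusted p were 14% and 12.2%. The DESeq2 Wald test called 7 of the 43 higher and 1 lower, against 1314 and 1185 of 17682 genes. The lower one was Malt1, a protease that acts downstream of the T cell receptor (log2 fold change -0.44). The genes of the IkB kinase core did not pass. The kinase Ikbkb was at 157, 136 and 172 CPM in Wtap KO and 128, 169 and 218 CPM in WT, and the kinase Chuk at 62.2, 71.7 and 71.8 CPM in Wtap KO and 76.7, 81.5 and 75.4 CPM in WT (log2 fold changes -0.15 ± 0.18 and -0.18 ± 0.10). Ikbkg, the regulatory subunit, and Map3k14, the kinase NIK that starts processing of p100, had log2 fold changes of -0.08 ± 0.11 and 0.19 ± 0.23. Nfkbib, which encodes IkB beta, the third classical inhibitor, was at 21.1, 19.1 and 15.4 CPM in Wtap KO and 13.6, 18.5 and 22.3 CPM in WT (log2 fold change 0.03 ± 0.20). Its groups overlapped fully, whereas those of Nfkbia and Nfkbie did not overlap.

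The 6 regulators that passed hold different roles. Ripk1, a kinase at TNF receptors, was at 96.4, 96.9 and 105 CPM in Wtap KO and 61.6, 61.4 and 63.5 CPM in WT (log2 fold change 0.68 ± 0.09, edgeR adjusted p = 0.00520). Traf6, a ubiquitin ligase, was at 243, 239 and 225 CPM in Wtap KO and 157, 162 and 134 CPM in WT (0.64 ± 0.11, adjusted p = 0.0102). Tab2, an adaptor of the kinase TAK1, had a log2 fold change of 0.39 ± 0.09, and Traf3, which keeps NIK low, one of 0.57 ± 0.15. Tnip1, a partner of the inhibitory enzyme A20, was at 108, 99.4 and 84.8 CPM in Wtap KO and 55.5, 66.0 and 73.0 CPM in WT (0.58 ± 0.14). Nlrc5, known chiefly as a transactivator of MHC class I, had a log2 fold change of 0.81 ± 0.14. Ripk1 passed without each single library, whereas the others were lost without Wtap KO 1 and without Wtap KO 2, with adjusted p up to 0.156 for Tab2.

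Of 40 listed NF-kappaB targets, 39 were tested, of which 7 were higher, 1 was lower and 31 did not pass. Of all 17610 genes tested, 5.75% were higher and 3.49% lower. The 39 targets had a median log2 fold change of 0.50, and 31 of them were positive. Over all genes tested, the median was -0.00 and 8796 values were positive. The unadjusted p was below 0.05 for 17 targets higher and 2 lower (Sod2 and Tnfrsf18), against 14% and 12.2% of all genes tested. Birc3, an inhibitor of apoptosis, was at 123, 136 and 110 CPM in Wtap KO and 52.9, 58.6 and 42.8 CPM in WT (log2 fold change 1.26 ± 0.14, edgeR adjusted p = 0.00229). Ccr7, a homing receptor, was at 758, 755 and 637 CPM in Wtap KO and 332, 364 and 448 CPM in WT (0.91 ± 0.14, adjusted p = 0.00681). Neither gene overlapped between the groups, and both passed without each single library. The adhesion molecule Icam1, the cytokine Tnf, the chemokine Ccl5, the stress gene Gadd45b and the ligand Tnfsf8 had log2 fold changes of 0.77, 0.93, 0.82, 0.72 and 0.65, and were each lost without Wtap KO 1 and without Wtap KO 2. Sod2, a mitochondrial superoxide dismutase and a known target, was lower, at 33.6, 35.5 and 36.8 CPM in Wtap KO and 48.2, 44 and 52.4 CPM in WT (log2 fold change -0.45 ± 0.11, adjusted p = 0.0391). When single libraries were left out, Sod2 and Gadd45b passed in 1 of 6 fits, that without WT 1. Tnf and Tnfsf8 passed in 2 of these 6 fits, Icam1 in 3 and Ccl5 in 4.

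For each called gene, the pair of other genes with the closest profile was sought in 8329 genes averaging 10 CPM or more, by the root mean square difference of centred log2(CPM + 1) over the 6 libraries. Nfkbia was closest to Orai1 (0.075) and Ltb (0.106), which encode a calcium channel pore and lymphotoxin beta. Nfkb2 was closest to Zhx2 (0.103) and Dpp7 (0.119), and Relb to Chpf (0.190) and Dpp7 (0.196), so Dpp7 was named for both. Nfkbie was closest to Zfp628 (0.074) and Wdr6 (0.079), Nfkbiz to Hspbap1 (0.060) and Zfp579 (0.067), and Bcl3 to Ubox5 (0.057) and Il18bp (0.079). WT 1 was the lowest library for each of these named genes except Ubox5 and Il18bp, which, like Bcl3, were lowest in WT 3. The measure shares its 6 libraries with the test, so it adds no separate evidence.

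**Figure D5:**
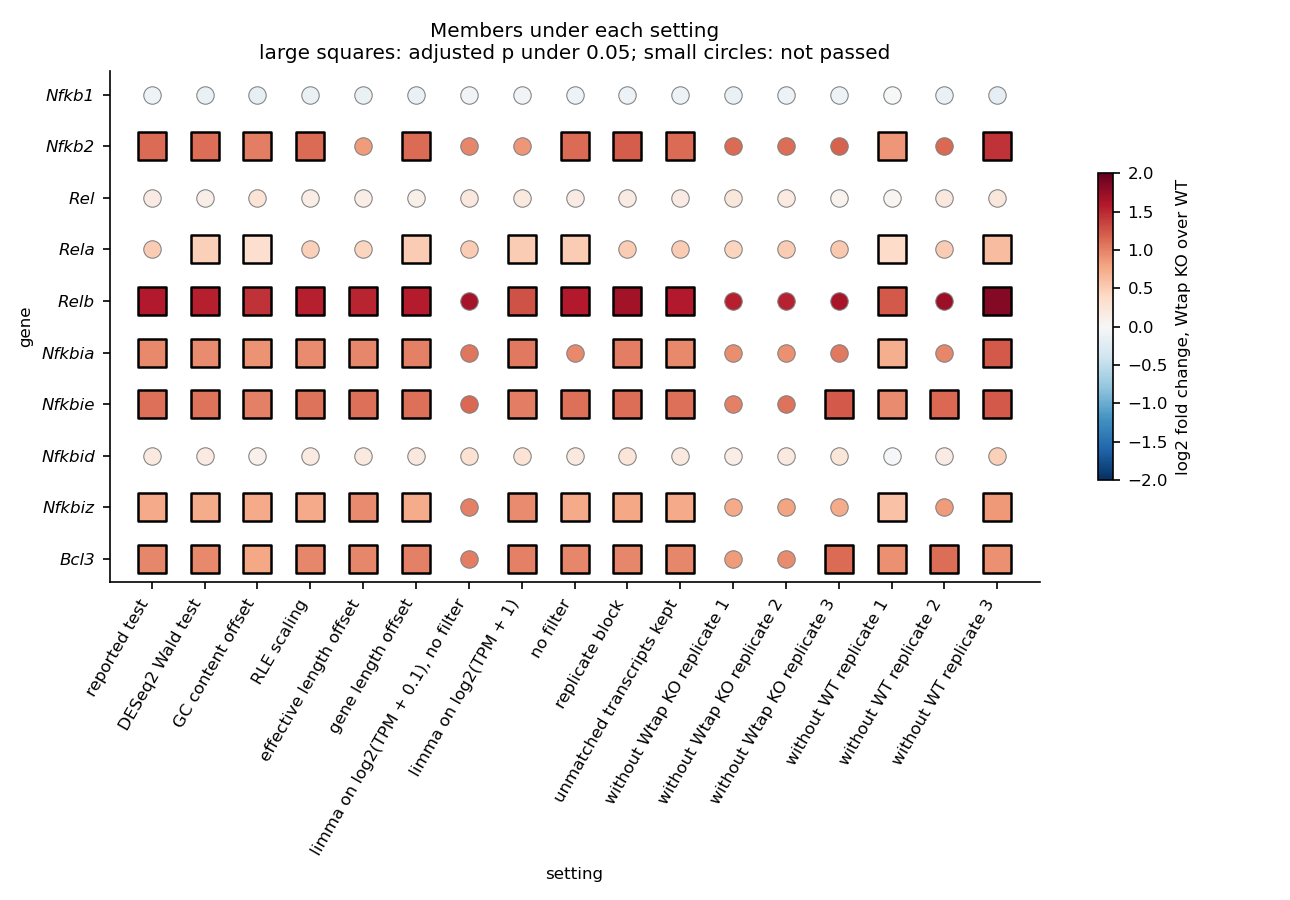
Log2 fold change of Wtap KO over WT (colour) for the 10 genes (rows) under the reported test and each other setting (columns); large squares passed an adjusted p of 0.05, and small circles did not. Relb, Nfkbie, Nfkbiz and Bcl3 pass under all but 1 of the settings that keep every library, and none of the 10 passes without Wtap KO 1, without Wtap KO 2 or with limma on log2(TPM + 0.1).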

How the data were processed

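RNA from 3 Wtap KO and 3 WT libraries was quantified by the authors, who deposited 1 table per library. In it, per the file headers, each transcript has an estimated count, a TPM value and 2 lengths, plain and effective. The submitters' processing notes name kallisto 0.44.0, DESeq2 and GRCm38 (mm10). The deposited TPM values are counts per effective length scaled to a fixed total per library, and kallisto splits reads that fit several transcripts, so TPM and shares carry an unstated assignment error. The annotation behind the index and the strand setting were not stated in the labels. Identifiers without version were matched to GENCODE M21 (99.15% of 142647 transcripts, holding 99.71% to 99.75% of the counts). The 1218 unmatched transcripts were left out.

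Estimated counts were summed per gene, rounded and tested with edgeR 4.0.16 (R 4.3.3; glmQLFit robust, TMM, filterByExpr, genotype only), with Benjamini-Hochberg adjustment over all genes and a threshold of 0.05. CPM uses TMM library sizes. An SE is the absolute log2 fold change over the square root of F. Transcripts were tested likewise, and shares with the gene total as offset. Alternatives used DESeq2 1.42.0, limma 3.58.1 on log2(TPM + 1) and log2(TPM + 0.1), other scalings, offsets on length or GC content, and single libraries left out. Scripts were tested on counts simulated per gene or transcript. That simulation did not split reads between transcripts, so it cannot check the assignment error.

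The 10 genes and both lists were chosen with earlier results of these data known, so the lists are no independent evidence of a direction. Named were all 10 genes, their transcripts with a mean of at least 1 TPM in a group or called, up to 8 called genes of each list and direction, a fixed set of IkB kinase genes with Nfkbib, Wtap, and the pair of genes most like each called gene. Genes named outside this rule were chosen after their values were seen. Some listed genes are not reported here.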

Additional observations from a re-analysis of the deposited data

How the results depend on the processing

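The number of the 10 genes called higher was 5 to 7 under the settings that kept all libraries, except limma on log2(TPM + 0.1), where it was 0 (7 at an unadjusted p of 0.05), and ran from 0 to 7 when single libraries were left out. The cause of each change listed here was not tested. Over all genes, calls higher ran from 263 to 1361 and calls lower from 98 to 921 without single libraries; limma on log2(TPM + 0.1) gave 265 higher and 75 lower, and calls lower were 1185 with DESeq2, 947 with the GC offset, 332 with limma on log2(TPM + 1) and 347 with the replicate block. Of all calls, 62.2% were higher in the reported test, against 73.8% and 77.9% with limma on log2(TPM + 1) and log2(TPM + 0.1), 67.3% with the block, 57.5% with the GC offset and 52.6% with DESeq2. Leaving out single libraries gave 58.4% without WT 3, 59.6% without WT 1, 67.5% without Wtap KO 3, 70.3% without WT 2, 71.3% without Wtap KO 1 and 72.9% without Wtap KO 2.

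Pathway regulators called higher ran from 1 to 9 without single libraries and were 1 with limma on log2(TPM + 0.1). Those called lower were 0 to 1 without single libraries and 1 with DESeq2, the GC offset (Nkiras2), the gene length offset and no filter (Malt1 in the other 3). Targets called higher ran from 2 to 13, with 12 in DESeq2 and 2 in limma on log2(TPM + 0.1); targets called lower ran from 0 to 1, with 2 in DESeq2 (Sod2 and Tnfrsf18) and 0 with the effective length offset, both limma settings and the block. Transcripts of the 10 genes called higher were 0 to 1 without single libraries and 12 in DESeq2, with 1 lower, and edgeR's share calls were 0 whichever library was left out (1 to 5 higher at an unadjusted p of 0.05). The share of Nfkbiz-205 passed with limma on its log-ratio (3.50, adjusted p = 0.00597).

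Whether replicate numbers pair the libraries is not stated in the labels. Same-numbered libraries had correlations of -0.103, 0.05 and 0.14 in their deviations from the group means over 17610 genes. Differently numbered libraries had correlations from -0.198 to 0.154. Deviations from a mean of 3 libraries constrain each other, so these values cannot decide on a pairing. With the replicate block 6 of the 10 genes were called, as were 714 genes higher and 347 lower, 3 pathway regulators, 7 targets higher and 0 lower. With the block, edgeR called 0 transcripts and 0 shares of the 10 genes (16 and 2 higher at an unadjusted p of 0.05), where Nfkbiz-205 had adjusted p of 0.30 and 0.41.

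Directions changed for values that did not pass. Ikbkg was at 0.01 in both limma settings, Nfkbib at -0.14 with the GC offset and -0.00 with the effective length offset, and Nfkbid-202 at 3.37 with the block. Without single libraries the log2 fold change ran from -0.33 to 0.06 for Ikbkb, -0.05 to 0.45 for Map3k14, -0.14 to 0.21 for Nfkbib and -0.02 to 0.48 for Nfkbid. For transcripts it ran from -0.26 to 0.20 for Nfkb1-203, -0.22 to 0.05 for Nfkb1-204, -2.57 to 9.44 for Nfkbid-202 and -1.21 to 0.31 for Nfkbid-203. The depth was lowest for Relb, with 73 counts in its lowest library, which limits the precision of its transcripts' values.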
